A study of Homo sapiens with 2 samples.

Results

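The proteasome genes were 48 of the 17964 genes with a named protein-coding RefSeq transcript on the array. They were taken as the probes, outside the control spots, whose RefSeq accession belongs to a symbol made of PSMA, PSMB, PSMC, PSMD, PSME, PSMF or PSMG and a number. They were read by 63 probes in 119 of the 58717 spots. By their known role the genes formed 5 classes: 15 genes of the 20S core, 4 of the immunoproteasome class, 17 of the 19S cap, 7 assembly factors and 5 activators and inhibitors.

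Expression was measured in SBC-3, an adherent human cell line of small-cell lung cancer (SCLC). RNA of cells transfected with #1 siHOTAIR, a small interfering RNA against the long noncoding RNA HOTAIR, was hybridized to 1 one-colour Agilent array, and RNA of control cells transfected with siGFP, directed at green fluorescent protein, to another. Both groups were the same line and both carried a transfected siRNA. The #1 siHOTAIR cells were compared with the control to ask whether HOTAIR depletion alters the transcription of genes, here of the proteasome. In the paper, other siRNAs also lowered HOTAIR, but only #1 siHOTAIR reduced proliferation and invasion. Loss of HOTAIR therefore cannot be told apart from other effects of this duplex or from the lower proliferation. There was 1 array per condition, so no test between conditions and no P-value was computed, and the effect of the siRNA cannot be told apart from that of the culture or the array. The agent was the duplex whose antisense strand is shown here with its seed, bases 2 to 8, in capitals.
#1 siHOTAIR antisense strand: uCUCUCUGuacucccguucuu

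The proteasome is the barrel-shaped protease that degrades proteins tagged with ubiquitin. Its 20S core is built of alpha rings, which gate the entrance, around beta rings, which hold the catalytic subunits PSMB5, PSMB6 and PSMB7. The 19S cap binds ubiquitin chains, unfolds the substrate with a ring of ATPases and removes ubiquitin in its lid. Interferon gamma induces PSMB8, PSMB9 and PSMB10, which take the place of the constitutive catalytic subunits in the immunoproteasome and alter the peptides that are made for antigen presentation. Tumor cells with a high rate of protein synthesis are known to depend on the complex.

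The 75th percentile of the signal was 650.3 for #1 siHOTAIR and 629.9 for siGFP, and 55.5% and 58.3% of the spots were well above background. No spot was saturated. Signals are given as the scanner software wrote them, in intensity units, with its own call of which spots are well above background. A log2 ratio is that of #1 siHOTAIR over siGFP after each signal was divided by the 75th percentile of its array. HOTAIR, the targeted transcript, was read by 1 spot at a signal of 108 with #1 siHOTAIR and 244 with siGFP, a log2 ratio of -1.22 with an error within the array of 0.22 (SD), and of -0.76 with normexp background correction. Of the markers of SCLC, NEUROD1, YAP1 and DLL3 were well above background on both arrays, CHGA and NCAM1 on the #1 siHOTAIR array alone, and POU2F3, INSM1, SYP and UCHL1 on neither. Of the 4 epithelial markers, KRT8 and KRT18 were well above background in both conditions, EPCAM on the siGFP array and CDH1 on neither. A probe was counted so if 50% or more of its spots were, and NCAM1 and EPCAM were near the floor. The mean signal of NCAM1 was 25.5 with #1 siHOTAIR, where the lowest signal of a spot called so was 37.3. That of EPCAM was 25.1 with siGFP, where the lowest was 28.6. Of the markers of other cell types, 5 were well above background with both siRNAs, and CD3E and PECAM1 on neither. The log2 ratios of the 5 were -2.52 for ALB (signals of 42.8 with #1 siHOTAIR and 238 with siGFP), 0.96 for COL1A1, 0.75 for PTPRC, 0.63 for CD68 and -0.04 for COL1A2, and that of the SCLC marker NEUROD1 was -0.85. The part of these markers in the results was not tested.

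Of the 48 proteasome genes, 45 had signals well above background with both siRNAs, and these were compared with the other genes. PSMA8, the alpha subunit of testis, PSMB11, the catalytic subunit of the thymus, and PSMB8 were well above background on neither array. Signals of the 1 PSMA8 probe were 10.3 with #1 siHOTAIR and 7.88 with siGFP. The 2 PSMB11 probes had signals of 10.8 and 19.2 with #1 siHOTAIR and 8.11 and 34.2 with siGFP. These genes have no ratio here, and no gene was seen on 1 array alone. The compared probes spanned signals from 67.2 to 101323 with #1 siHOTAIR and from 61.8 to 127078 with siGFP.

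No proteasome gene differed 2-fold between #1 siHOTAIR and siGFP cells. The count was 0 of 45, whereas 5.92% of the 12486 compared genes differed at least 2-fold in either direction. At 1.5-fold the count was again 0 of 45, beside 16.5% of all compared genes. At 1.25-fold, 2 of 45 genes (PSMB10 and PSMD5) were higher in #1 siHOTAIR cells, where 19.5% of all genes were, and 4 of 45 (PSMD10, PSMG4, PSMB1 and PSMD7) were lower, where 17.8% of all genes were. With the arrays scaled to the spike-in control spots, 4 of 45 were higher and 1 was lower by 1.25-fold, where 31.8% and 11.8% of all genes were. The log2 ratios of the proteasome genes ran from -0.57 to 0.44.

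Bright probes vary less, and 37 of the 45 proteasome genes had a mean signal more than 2 log2 units above the 75th percentile. Among the 3008 compared genes as bright as that, 0.831% differed at least 2-fold, and 0 of the 37 proteasome genes did. At 1.25-fold, 12.2% of the bright genes were higher and 1 of 37 proteasome genes was (PSMB10), whereas 9.01% were lower and 2 of 37 were (PSMB1 and PSMD7). The SD of the log2 ratios was 0.17 over the 37 bright proteasome genes, 0.29 over the bright genes and 0.58 over all compared genes. The SD of the proteasome genes was thus the smallest of the 3, which describes these 2 arrays and was not tested.

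**Figure D1:**
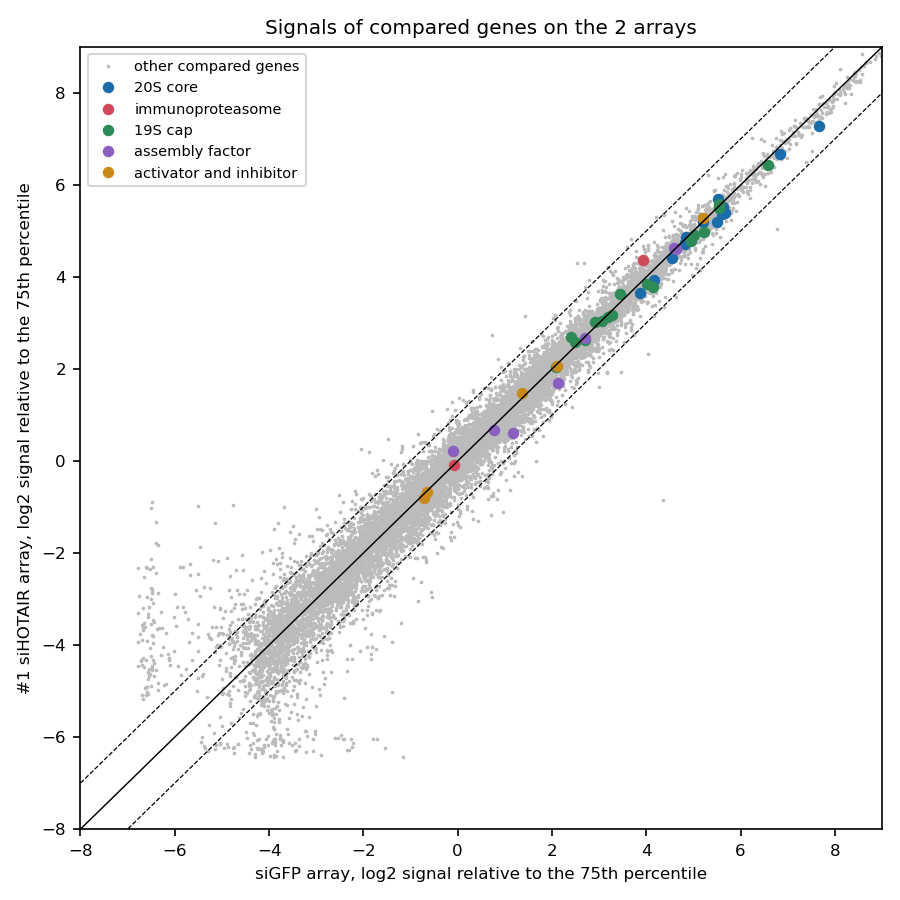
Signal of each compared gene on the siGFP array (x axis) and the #1 siHOTAIR array (y axis), both in log2 units relative to the 75th percentile of the array. Grey points are other compared genes, coloured points the 45 proteasome genes by class, the solid line marks equal signal and the dashed lines a 2-fold difference; every proteasome gene lies between the dashed lines.

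The median log2 ratio of the 45 proteasome genes was -0.07, beside 0.02 over all compared genes and 0.01 over the bright genes. In all, 32 of 45 proteasome genes had a ratio below 0, beside 5904 of the 12486 compared genes and 1478 of the 3008 bright genes. This sign depends on the scaling, because with the arrays scaled to the spike-in control spots the median of all genes moved to 0.16 and 31 of the 45 proteasome genes were above 0 in place of 13. Ratios of groups are therefore also given relative to the median of all genes. On that scale the proteasome median was -0.09, and between -0.09 and -0.08 over the 4 other scalings. By the same measure 33 of 45 genes lay below the median of all genes, and from 31 to 33 over those scalings.

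**Figure D2:**
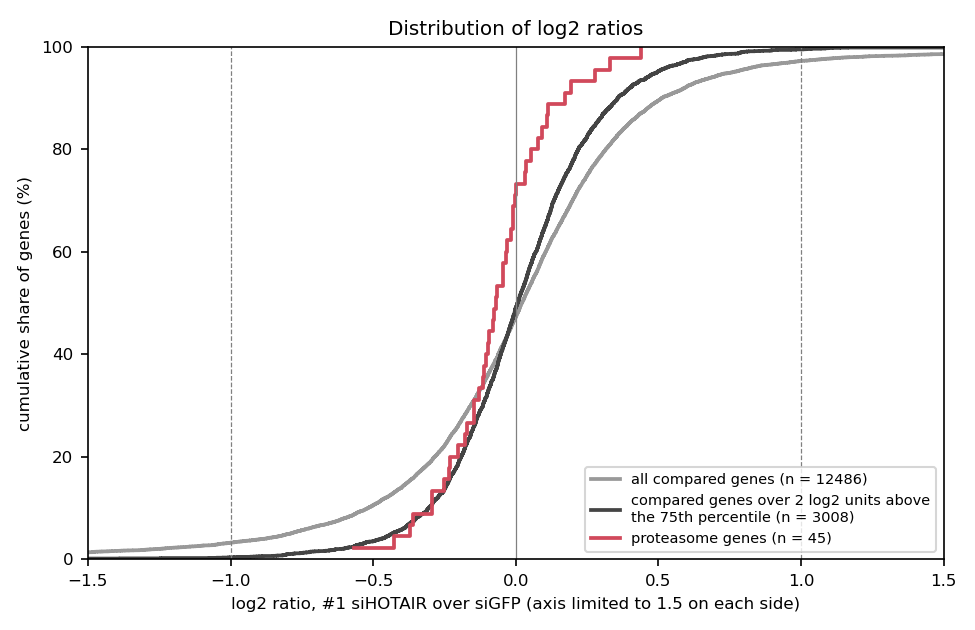
Cumulative share of genes (y axis, percent) against the log2 ratio of #1 siHOTAIR over siGFP (x axis, limited to 1.5 on each side) for the 12486 compared genes, the 3008 bright genes and the 45 proteasome genes. The proteasome curve reaches its end at 0.44 and starts at -0.57, inside the 2-fold lines, and crosses its middle at -0.07, while with spike-in scaling every curve would shift to the right by the same amount.

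The error of a ratio was read from probes with 10 spots on the array. Their spot-to-spot SD at the same signal, divided by the square root of the number of spots, is called the measurement SD and ranged from 0.01 to 0.10 over the proteasome genes, with a median of 0.03. The number of spots takes in outlier spots, so the value is too small for PSMD6, with 6 of 10 spots clean on both arrays. For PSMD7 the spot-to-spot SD used was 0.05, and that of its own spots was 0.07. The measurement SD covers error within an array and not the spread between cultures. The scanner software's own error gave an SD from 0.20 to 0.21. By the measurement SD, 29 of 45 ratios (64.4%) lay more than 2 SD from 0, beside 59.7% of all compared genes, and 21 of them were lower and 8 higher. By the software's error 3 of 45 did, and the share over all compared genes was not computed for that error.

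Repeats within an array gave similar ratios. Of 37 proteasome probes with 2 clean spots, 32 had both spots on the same side of 0, and the gap between their log2 ratios had a median of 0.05 and reached 0.21. Of 11 genes with more than 1 compared probe, 8 had every probe on the same side. Neither share was computed over all compared genes. The gap between probes was largest for PSMA1, an alpha ring subunit. Its brighter probe had a log2 ratio of -0.11, and a probe for another transcript had -0.55 at signals of 90.7 with #1 siHOTAIR and 129 with siGFP. The ratio of 10 genes rests on 1 spot.

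**Figure D3:**
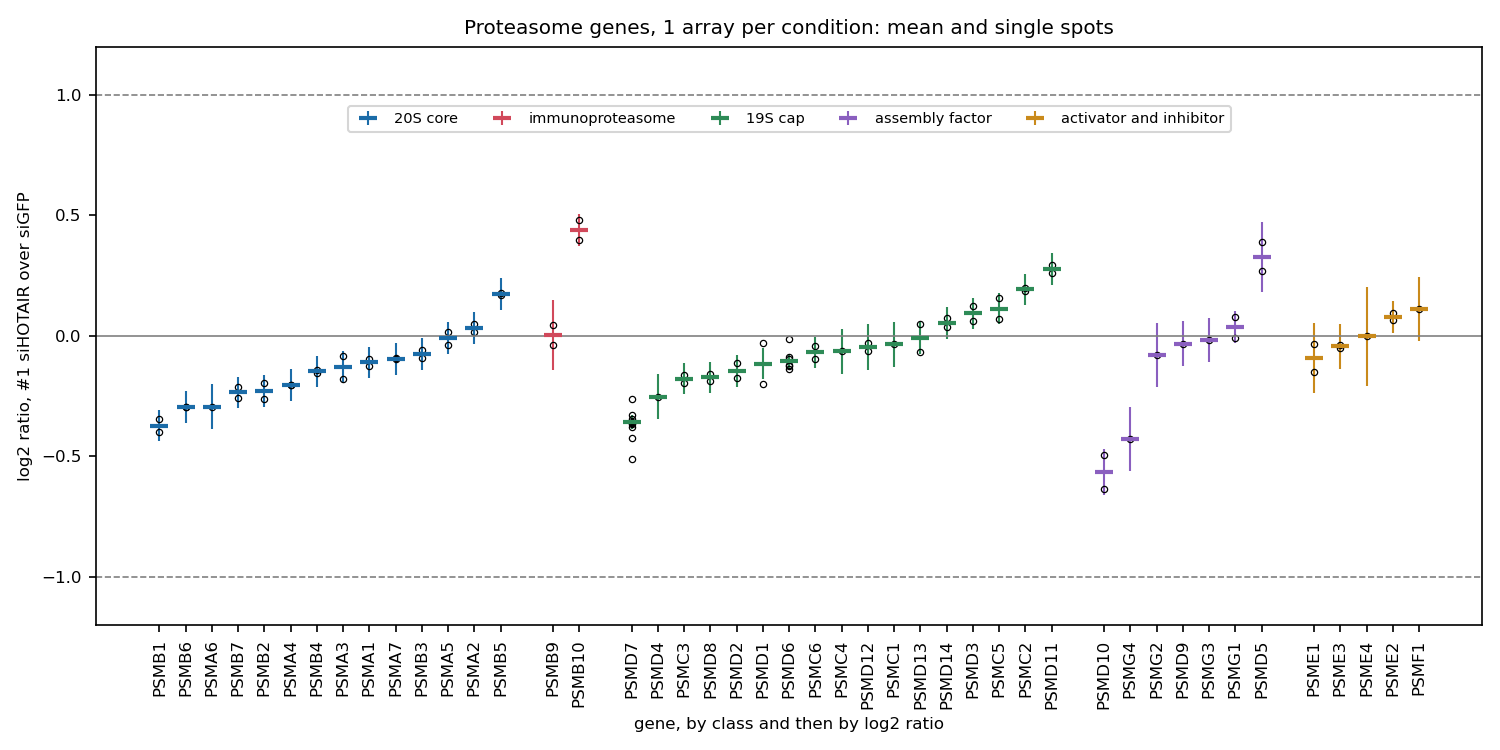
Log2 ratio of #1 siHOTAIR over siGFP (y axis) of the 45 compared proteasome genes (x axis), by class and then by ratio. Coloured bars are the mean of the probe used with 2 measurement SD on each side, open circles the single spots and dashed lines a 2-fold difference; PSMB10 stands highest at 0.44 and PSMD10 lowest at -0.57, and the zero line is that of scaling to the 75th percentile.

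In the 20S core, 14 genes were compared and their median log2 ratio was -0.14. Of them 12 lay below 0, and the median relative to all genes was -0.16, from -0.16 to -0.13 over the other scalings. With spike-in scaling the median itself was 0.00093. The alpha ring genes had a median of -0.11, with 6 of 7 below 0 (by spike-in scaling that median is above 0), and the 4 structural beta genes one of -0.19, with 4 of 4 below 0 (PSMB3 is above 0 by spike-in scaling). PSMA6, an alpha subunit, had the lowest ratio of its ring. Its 1 spot had a signal of 27149 with #1 siHOTAIR and 32255 with siGFP, a log2 ratio of -0.29 with a measurement SD of 0.05. PSMA2, which lay at 0.03 with a measurement SD of 0.03, was the 1 alpha gene above 0 on the 75th percentile scale. The remaining alpha genes PSMA1, PSMA3, PSMA5 and PSMA7 lay between -0.13 and -0.0097.

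PSMB1 had the lowest ratio of the core. It encodes a beta ring subunit that cuts no peptides itself. Its 2 spots had signals of 100218 and 102440 with #1 siHOTAIR and 127923 and 126239 with siGFP. Both spots were lower with #1 siHOTAIR, and the log2 ratio was -0.37 with a measurement SD of 0.03. A second probe, of 1 spot, read 35069 against 45683 and gave -0.43. PSMB2, another structural beta subunit, had spot ratios of -0.26 and -0.20, a mean of -0.23. PSMB3 and PSMB4, the other structural beta genes, had -0.08 and -0.15. PSMA4, of the alpha ring, had -0.20 in both of its spots.

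The 3 constitutive catalytic subunits lay on both sides of 0, under each scaling tried. PSMB6, which carries the caspase-like activity, had spot signals of 23514 and 24214 with #1 siHOTAIR and 27916 and 28807 with siGFP, a log2 ratio of -0.30. PSMB7, of the trypsin-like activity, had 27437 and 26496 against 30766 and 30722, a log2 ratio of -0.24. PSMB5, of the chymotrypsin-like activity and the main target of bortezomib, had 33330 and 34283 against 28550 and 29518. In PSMB6 and PSMB7 both spots were lower with #1 siHOTAIR and in PSMB5 both were higher, with a log2 ratio of 0.17. The measurement SD was 0.03 for each of the 3 genes. Both spots of PSMB5 lie in the first 37.5% of the rows of the array, a region that is left out in 1 of the alternatives, so the gene has no value there.

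**Figure D4:**
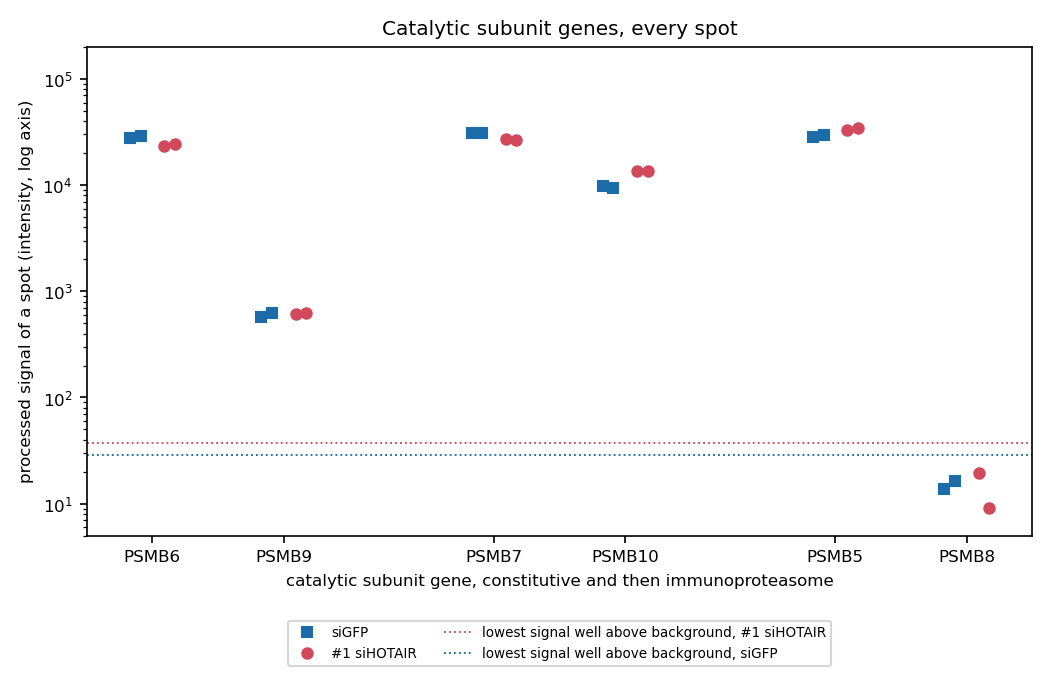
Processed signal of every spot (y axis, intensity on a log axis) of the catalytic subunit genes (x axis), each constitutive gene beside the interferon-inducible gene that replaces it, with squares for siGFP, circles for #1 siHOTAIR and dotted lines at the lowest signal well above background on each array. Both PSMB10 spots are higher with #1 siHOTAIR (13461 and 13471 against 9331 and 9911), PSMB9 spots are at like signals, and PSMB8 spots lie under the dotted lines; heights of different genes are not comparable because probes differ.

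Of the interferon-inducible subunits, PSMB10 had the highest ratio of all proteasome genes. Its 2 spots read 13471 and 13461 with #1 siHOTAIR and 9911 and 9331 with siGFP. Each spot was higher with #1 siHOTAIR, and the log2 ratio was 0.44 (1.36-fold) with a measurement SD of 0.03. Both spots lie in the same first rows and 1 probe reads the gene, so no spot from the rest of the array stands beside them. PSMB9 had 608 and 621 against 571 and 618. These signals hardly differed, with a log2 ratio of 0.0019 and a measurement SD of 0.07. PSMB8 had 19.4 and 9.12 with #1 siHOTAIR and 13.6 and 16.5 with siGFP, all not well above background.

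Set against the subunit it replaces, PSMB10 had a log2 ratio 0.68 above that of PSMB7, a 1.60-fold difference, with a measurement SD of 0.05 and 0.29 by the software's error. PSMB9 lay 0.30 above PSMB6, with a measurement SD of 0.08 and 0.29 by the software's error. The pair PSMB8 and PSMB5 has no value because PSMB8 was not well above background. The difference of a pair does not depend on how the arrays are scaled by a constant. No test of either difference was possible with 1 array per condition.

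The promoter of PSMB10 is shown because this gene had the highest ratio and that of PSMB9 because its ratio was near 0. All promoters here are the RefSeq sequences of build GRCh38.p14 from 250 bases before to 50 bases after the start of transcription, written in the direction of the gene. In PSMB10 the capitals mark an interferon-stimulated response element (GAAANNGAAA, or TTTCNNTTTC on the other strand). In PSMB9 they mark a CCAAT box (CCAAT or ATTGG) and then an antioxidant response element (TGACNNNGC or GCNNNGTCA).
PSMB10 (chr16:67936801-67937100, minus strand): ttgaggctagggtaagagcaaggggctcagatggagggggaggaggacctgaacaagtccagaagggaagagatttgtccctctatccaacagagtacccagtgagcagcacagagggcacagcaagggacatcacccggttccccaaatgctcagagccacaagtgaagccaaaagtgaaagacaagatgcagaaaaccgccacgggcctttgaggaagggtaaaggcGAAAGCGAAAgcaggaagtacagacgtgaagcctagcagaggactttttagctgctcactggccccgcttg
PSMB9 (chr6:32853942-32854241, plus strand): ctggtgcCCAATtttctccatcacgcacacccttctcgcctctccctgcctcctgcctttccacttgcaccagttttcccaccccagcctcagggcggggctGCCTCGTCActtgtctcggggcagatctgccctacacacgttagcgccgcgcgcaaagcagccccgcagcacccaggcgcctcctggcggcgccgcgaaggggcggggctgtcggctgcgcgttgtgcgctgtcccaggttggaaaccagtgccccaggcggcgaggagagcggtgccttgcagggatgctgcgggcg

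The interferon-stimulated response element was searched after the promoter sequences had been read. It stood in 7 of the 51 promoters found for 42 proteasome genes (13.7%) and in 3.57% of all 35116 promoters. The 7 genes were PSMB10, PSMB8, PSME1, PSME2, PSMG4, PSMB4 and PSMA4. Their windows are printed to show the element, in capitals, with 10 bases on each side.
PSMB10 (chr16:67936801-67937100, minus strand): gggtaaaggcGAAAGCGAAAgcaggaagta
PSMB8 (chr6:32843998-32844297, minus strand): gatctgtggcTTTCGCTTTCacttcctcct
PSME1 (chr14:24135944-24136243, plus strand): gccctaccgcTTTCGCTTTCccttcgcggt
PSME2 (chr14:24146561-24146860, minus strand): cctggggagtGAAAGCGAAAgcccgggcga
PSMG4 (chr6:3258697-3258996, plus strand): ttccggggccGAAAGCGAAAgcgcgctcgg
PSMB4 (chr1:151399323-151399622, plus strand): tcgtctacagGAAAAAGAAAgaaatgacac
PSMA4 (chr15:78540155-78540454, plus strand): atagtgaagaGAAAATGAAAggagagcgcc

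The first base of the element lay at -21 from the start of transcription in PSMB10, at -28 in PSME2 and at -33 in PSMG4, counting the base before the start as -1. These 3 promoters hold the same letters, GAAAGCGAAA, and the log2 ratios of the genes were 0.44, 0.08 and -0.43. The 6 compared genes with the element had a median log2 ratio of -0.12 and ranged from -0.43 to 0.44, and the 33 without it in the promoters at hand had a median of -0.04. PSMG4, the lowest of these, rests on 1 spot, and the part of the element in the ratios was not tested. A second interferon-linked pattern, the GAS-like element TTCNNNGAA, which reads the same on both strands, stood in 8 of 51 promoters (15.7%) and in 7.66% of all. A match is a run of letters and not a measured site.

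Other genes of the interferon side did not share 1 direction. IRF1, a transcription factor of the response, read 30.0 with #1 siHOTAIR and 39.5 with siGFP. Its log2 ratio was -0.45 with a measurement SD of 0.46. It was well above background on the siGFP array alone. The lowest signal called so was 28.6 on that array and 37.3 on the #1 siHOTAIR array. In the gene order of chromosome 6, PSMB8 and PSMB9 stand next to the peptide transporter genes, as TAP2, PSMB8, TAP1, PSMB9. TAP2 had spot signals of 579 and 678 with #1 siHOTAIR and 234 and 235 with siGFP, a log2 ratio of 1.37, while its second probe was well above background on neither array. TAP1, which shares a promoter region with PSMB9, had a log2 ratio of -0.19. ISG15, a ubiquitin-like protein induced by interferon, had 0.49, and IFI6, another interferon-induced gene, had 0.01.

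In the 19S cap all 17 genes were compared and their median log2 ratio was -0.06. Relative to all genes it was -0.09 under each scaling, and with spike-in scaling the median itself was 0.08. The 6 ATPases of the base had a median of -0.05, the 3 other base subunits one of -0.15 and the 8 lid subunits one of -0.03 (each on the 75th percentile scale; the medians of the ATPases and the lid are above 0 by spike-in scaling). The ATPases ranged from PSMC3 at -0.18 to PSMC2 at 0.19. PSMC2 had spot ratios of 0.19 and 0.20, and PSMC1, PSMC4, PSMC5 and PSMC6 lay between -0.07 and 0.11. PSMD4, a ubiquitin receptor of the base, had a signal of 20542 in its 1 spot with #1 siHOTAIR and 23696 with siGFP. Its log2 ratio was -0.25.

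PSMD7 and PSMD6, both structural subunits of the lid, were the proteasome genes read by 10 spots. For PSMD7 the signals of 9 spots clean on both arrays had a lowest, median and highest value of 8220, 8956 and 9566 with #1 siHOTAIR and of 10863, 11183 and 11454 with siGFP. The 2 ranges did not overlap. That was also so for genes with ratios near 0, among them PSMA2 at 0.03, PSMD14 at 0.05 and PSME2 at 0.08. The share of all probes without overlap was not computed, and spots repeat a probe within an array and not a culture. The ratio of the gene was -0.36, and the spot ratios ran from -0.51 to -0.26 with an SD of 0.07. In the first 37.5% of the rows the 3 spots averaged -0.42 and in the other rows 6 spots averaged -0.35. For PSMD6, 6 clean spots gave 5677, 5896 and 6010 against 5753, 6078 and 6274, ranges that overlap, and a mean log2 ratio of -0.10 with an SD of 0.04. PSMD6 is above 0 by spike-in scaling and PSMD7 below 0 under every scaling tried.

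**Figure D5:**
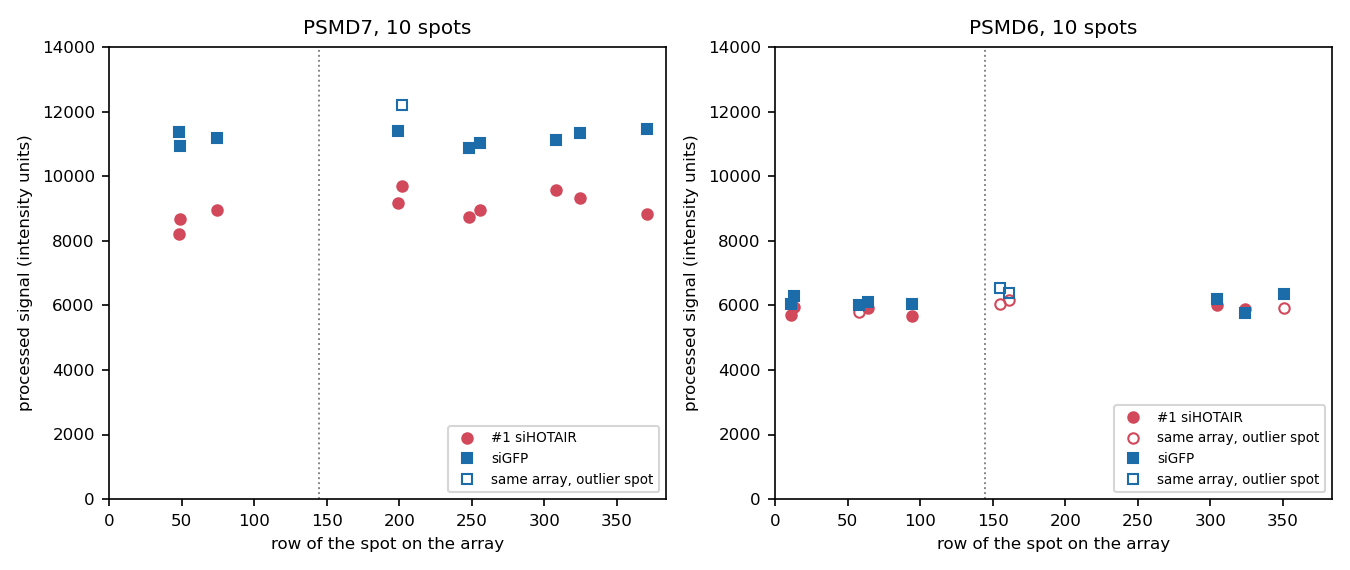
Processed signal (y axis, intensity units) of the 10 spots of PSMD7 and of PSMD6 against the row of the spot on the array (x axis), with circles for #1 siHOTAIR, squares for siGFP, open symbols for spots marked as outliers and a dotted line at the end of the first 37.5% of the rows. The PSMD7 signals form 2 separate bands along the whole array (up to 9566 and from 10863 among spots clean on both arrays), and the PSMD6 signals overlap.

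PSMD11, a scaffold subunit of the lid, had the highest ratio of the cap. Its spots read 4315 and 4070 with #1 siHOTAIR and 3491 and 3212 with siGFP. Both spots were higher with #1 siHOTAIR, and the log2 ratio was 0.28 (1.21-fold) with a measurement SD of 0.03. PSMD14, the deubiquitinase of the lid, lay at 0.05, and PSMD3, PSMD8, PSMD12 and PSMD13, further lid subunits, between -0.17 and 0.09. PSMD2 and PSMD1, the large scaffolds of the base, had -0.15 and -0.12, of which PSMD1 is above 0 by spike-in scaling.

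Assembly factors were the most spread of the classes with more than 2 compared genes. Their 7 ratios had an SD of 0.30, beside 0.15 for the core and 0.16 for the cap, and a median of -0.03, which was 0.11 with spike-in scaling. PSMD10, PSMD5 and PSMG4 were not among the bright genes. Within 2 log2 units of the 75th percentile the SD was 0.29 over 8 proteasome genes and 0.41 over all compared genes. The part of the signal level in the spread of the class was not tested. The lowest and the second highest ratio of all proteasome genes were both chaperones that help the base of the cap to form. PSMD10, known as gankyrin and as an oncoprotein that binds RB1 and MDM2, had spot signals of 957 and 1016 with #1 siHOTAIR and 1441 and 1387 with siGFP. Each spot was lower with #1 siHOTAIR, and the log2 ratio was -0.57 (0.675-fold) with a measurement SD of 0.05. A second probe, for another transcript, read 220 against 324 and gave -0.60. PSMD10 stayed between -0.58 and -0.43 over the processing alternatives.

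PSMD5 had spot signals of 722 and 803 with #1 siHOTAIR and 581 and 595 with siGFP. Both were higher with #1 siHOTAIR, and the log2 ratio was 0.33 (1.26-fold) with a measurement SD of 0.07. A second probe of 1 spot read 235 against 163 and gave 0.49. PSMD9, the other chaperone of the base, lay at -0.03, and its second probe at 0.12. The base chaperones therefore held a gene low in 2 probes, a gene high in 2 probes and a gene whose probes lay on both sides of 0.

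Of the chaperones of the core, PSMG4 was lower in #1 siHOTAIR cells. Its 1 spot read 2120 with #1 siHOTAIR and 2764 with siGFP, a log2 ratio of -0.43 with a measurement SD of 0.07, and the second probe was well above background on neither array. PSMG1, PSMG2 and PSMG3 lay between -0.08 and 0.04. POMP, the factor that helps the core particle to close and carries no PSM symbol, read 968 against 700 in 1 spot, a log2 ratio of 0.42. PAAF1, a further factor of the base, had 4733 against 6300 in the probe used and a log2 ratio of -0.46, and a second probe gave -0.46 as well.

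The promoters of PSMD10, PSMD7 and PSMD5 are shown because these genes had low or high ratios in several spots or probes. Capitals mark the CCAAT box of PSMD10 and PSMD7 and the antioxidant response element of PSMD5.
PSMD10 (chrX:108091493-108091792, minus strand): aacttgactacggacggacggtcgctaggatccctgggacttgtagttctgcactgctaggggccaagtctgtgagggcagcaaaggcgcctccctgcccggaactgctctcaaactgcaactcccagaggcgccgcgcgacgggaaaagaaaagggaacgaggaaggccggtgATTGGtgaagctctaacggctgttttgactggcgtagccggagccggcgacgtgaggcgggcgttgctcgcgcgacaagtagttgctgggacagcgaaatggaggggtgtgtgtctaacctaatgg
PSMD7 (chr16:74296564-74296863, plus strand): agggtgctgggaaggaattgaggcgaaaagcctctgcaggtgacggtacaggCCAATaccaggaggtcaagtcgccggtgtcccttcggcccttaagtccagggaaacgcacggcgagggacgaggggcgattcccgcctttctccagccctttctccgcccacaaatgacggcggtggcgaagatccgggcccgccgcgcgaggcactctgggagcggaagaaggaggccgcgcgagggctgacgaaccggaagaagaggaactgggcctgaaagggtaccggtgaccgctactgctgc
PSMD5 (chr9:120842873-120843172, minus strand): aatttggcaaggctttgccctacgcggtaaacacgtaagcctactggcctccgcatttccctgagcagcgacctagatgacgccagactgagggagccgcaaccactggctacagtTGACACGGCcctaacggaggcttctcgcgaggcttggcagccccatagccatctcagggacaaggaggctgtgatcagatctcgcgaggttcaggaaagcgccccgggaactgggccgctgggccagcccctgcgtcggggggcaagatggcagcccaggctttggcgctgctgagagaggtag

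The antioxidant response element is the pattern through which the factors NFE2L1 and NFE2L2 act on proteasome genes. It stood in 15 of the 51 promoters (29.4%) and in 13.3% of all promoters. The CCAAT box stood in 20 of 51 (39.2%) and in 34.6% of all, and in PSMD14 both of its strands overlap in 1 stretch. The 15 compared genes with an antioxidant response element had a median log2 ratio of -0.03 and ranged from -0.20 to 0.33. The 24 without one had a median of -0.09 and ranged from -0.57 to 0.44. For each class other than that of PSMB9, 1 window is printed, with the element in capitals.
PSMB3 (chr17:38752491-38752790, plus strand): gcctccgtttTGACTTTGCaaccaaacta
PSMD3 (chr17:39980557-39980856, plus strand): tcccctttgtTGACTCGGCcatcggcctg
PSMG1 (chr21:39183402-39183701, minus strand): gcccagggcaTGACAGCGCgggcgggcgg
PSME1 (chr14:24135944-24136243, plus strand): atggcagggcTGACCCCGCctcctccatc

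Among the regulators of proteasome genes, NFE2L1 had signals of 3261 with #1 siHOTAIR and 3412 with siGFP, a log2 ratio of -0.11 that is above 0 by spike-in scaling. NGLY1, the enzyme that trims NFE2L1, lay at 0.03. DDI2, the protease that activates it, read 77.8 against 46.7 in 1 dim spot, a log2 ratio of 0.69 with a measurement SD of 0.22, which was 0.34 with normexp background correction. NFE2L2 was well above background on neither array.

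The activators and the inhibitor had the smallest spread of the classes, with an SD of 0.08 over 5 genes and a median of -0.0021 (0.14 with spike-in scaling). PSME1 and PSME2, which form the interferon-inducible 11S cap and are separated on chromosome 14 by EMC9 alone, had log2 ratios of -0.09 and 0.08. PSME3, the nuclear 11S activator, lay at -0.04. PSME4, the PA200 activator, had -0.0021 in 1 probe and 0.13 in another. PSMF1, an inhibitor of the core, was read by 4 probes, and their log2 ratios ran from 0.08 to 0.14.

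Beyond the PSM symbols, 9 of 10 listed partners of the proteasome had a matched probe, and all 9 were well above background in both conditions. Their median log2 ratio was -0.02. None differed 2-fold, beside 5.92% of all compared genes. At 1.25-fold 2 were higher (POMP and USP14), beside 19.5% of all compared genes, and 1 was lower (PAAF1), beside 17.8%. USP14, a deubiquitinase that docks on the cap, read 182 and 156 with #1 siHOTAIR and 85.9 and 88.1 with siGFP. Its log2 ratio was 0.91 (1.88-fold) with a measurement SD of 0.16, and 0.54 with normexp background correction. UCHL5, a further deubiquitinase of the cap, had -0.16 over 10 spots, and SEM1, the smallest lid subunit, had -0.02. The ubiquitin genes UBB and RPS27A had log2 ratios of 0.04 and -0.08.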

How the data were processed

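RNA of 2 SBC-3 cultures, 1 per condition, was hybridized, as Cy3-labelled cRNA, to Agilent SurePrint G3 8x60K arrays. The submitters' processing notes name Agilent Feature Extraction 10.10.1.1. In the deposited scanner output the authors give a processed intensity for each spot, from which the software had taken the background and spatial trends, with no scaling between arrays. The deposited value table equals the background-subtracted intensity of the same spots (largest difference 0). A genome build is not given in the sources used here, other than in the name of the array grid.

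Here log2 processed signals were expressed relative to the 75th percentile of non-control spots. Outlier spots were dropped from their own array, and spots were averaged by probe. Probes entered the comparison if 50% or more of their spots stood well above background on 1 array or both, and the compared probe with the highest mean signal stood for its gene. Accessions were matched without versions to RefSeq tables of GRCh38.p14, used for names, gene order and promoters (96.8% of probes with protein-coding accessions matched). Promoters were matched by symbol for 42 of 48 genes; those of PSMA7, PSMB1, PSMB6, PSMB7, PSMD4 and PSMG3 are not printed. With 1 array per condition the number of arrays limits the precision, and ratios are given without a test.

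The proteasome genes, the gene lists and the processing alternatives were chosen with earlier results of these data known. All proteasome genes were named, with full values for genes not well above background, the 10 largest absolute ratios and the catalytic subunits, and other genes by list, of which some are not reported here. The 1.25-fold count, the bright-gene group, the interferon-stimulated response element and PSMD6 and PSMD11 in full were chosen after values or sequences had been seen. The methods' 2-fold change was used as the threshold, and their P threshold and ontology step could not be applied. Background correction by normexp (offset 50) used the median spot signal, in place of the mean signal that had been planned. Protein identity between the paired catalytic subunits was not run, as no protein table was used here. Calculations were tested on simulated data and used Python 3.11.15, numpy 2.4.6, pandas 2.3.3, R 4.3.3 and limma 3.58.1.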

Additional observations from a re-analysis of the deposited data

How the results depend on the processing

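The ratios rest on 1 array per condition, and signal over background limits them for dim probes such as those of PSMB8. No paired analysis was possible because each condition has 1 array. Under the 11 alternatives for scaling, background, filter, probes and spots, and at a threshold of 1.5-fold, 0 proteasome genes passed. Scaling to the spike-in control spots moved the median log2 ratio of all proteasome genes from -0.069 to 0.071, of the 20S core from -0.14 to 0.00093, of the immunoproteasome class from 0.22 to 0.36, of the 19S cap from -0.065 to 0.075, of the assembly factors from -0.03 to 0.11 and of the activators and inhibitor from -0.0021 to 0.14, with the median of all genes at 0.16. With no scaling the same medians were -0.023, -0.093, 0.27, -0.019, 0.014 and 0.044. Leaving out the first 37.5% of the rows of the array, chosen because earlier results of these data had more changed spots there, left 34 proteasome genes with a value (PSMB10 and PSMB5 are not among them). It put the 20S core at -0.26 over 8 genes, the immunoproteasome class at 0.0019 from PSMB9 alone, the assembly factors at -0.080 and the activators and inhibitor at 0.049. These rows hold 48.7% of the proteasome spots and 37.5% of all. Normexp put the assembly factors at -0.092, the median of a gene's probes put the activators and inhibitor at 0.063, and no filter on dim probes put the immunoproteasome class at -0.11 with its 4 genes, 2 of them not well above background. These shifts by spike-in scaling and no scaling are constants added to every ratio, and the cause of the others was not tested. The sign of 26 of 45 ratios (14 lower and 12 higher) was kept under the alternatives in which the gene has a value, which are all 11 for 19 of them and all but the one leaving out rows for 7. By the same count 37 of 45 stayed on 1 side of the median of all genes, 27 under all 11 and 10 without that one. Normexp put HOTAIR at -0.76, USP14 at 0.54, DDI2 at 0.34 and TAP2 at 1.15.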

Other observations

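Other transcripts whose symbols begin with PSM but fall outside the rule were also read. PSMC3IP, a partner of meiotic recombinases, had a log2 ratio of 0.04. PSME3IP1, a protein that binds PSME3, had 0.11 over 10 spots and 0.07 in a second probe. The noncoding PSMA3-AS1 read 52.0 with #1 siHOTAIR and 75.1 with siGFP, a log2 ratio of -0.57 in 1 dim spot. PSMG3-AS1 read 63.1 against 104 in 1 probe, a log2 ratio of -0.77, and 49.7 against 172 in another that was well above background on the siGFP array alone. PSMG3, whose name it carries, had a log2 ratio of -0.02.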
